A study of Mus musculus with 14 samples.

Results

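The genes described here are the 10 genes of MHC class II antigen presentation, H2-Aa, H2-Ab1, H2-Eb1, Cd74, Ciita, H2-DMa, H2-DMb1, H2-DMb2, H2-Oa and H2-Ob. They were chosen by symbol from the 55367 gene symbols counted, by a rule that uses no measured value, although earlier results of these data were known when the list was made, and all 10 were counted and tested in both experiments. Messenger RNA was sequenced from cultures of lineage-negative (Lin-) cells, the part of mouse marrow left after mature blood cells are removed, from mice of wild-type genotype, and the cultures received SCF, IL6 and IL3. The first experiment had 6 cultures, of which 3 were transduced with a pSMAL lentivirus carrying luciferase as the control and 3 with the same vector carrying SETBP1-D868N, a mutant form of the nuclear protein SETBP1. In the second experiment every culture carried SETBP1-D868N, and 4 cultures were kept with the solvent DMSO and 4 with 2.5 µM PF-9363, an inhibitor of MYST histone acetyltransferases, for 4 days. The second experiment had no luciferase arm, and the labels give neither the strain and age of the mice nor whether the replicates of a group came from separate animals. The p-values therefore measure the spread between these cultures, which may be technical.

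MHC class II molecules are pairs of an α and a β chain that carry peptides from endocytosed protein to the cell surface, where CD4+ T cells read them. New pairs bind the invariant chain, Cd74, which blocks the groove until endosomal proteases cut it down to the fragment CLIP. H2-M, made of H2-DMa with H2-DMb1 or H2-DMb2, then exchanges CLIP for peptide, and H2-O, made of H2-Oa and H2-Ob, inhibits H2-M. The co-activator Ciita does not bind DNA itself. It is recruited to factors that sit on the X, X2 and Y boxes shared by promoters of class II genes. In marrow and blood, class II is best known from B cells, dendritic cells and activated macrophages.

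These boxes were looked up in the RefSeq promoter table (build GRCm38.p6), which had usable windows for 7 members (8 windows, since H2-DMa had 2). The searched letters were AGNAAC for a short X box core, AGNAACA for a longer one, TGACG for the X2 box and ATTGG for the Y box, on both strands of the 250 bases before each start. AGNAACA contains AGNAAC. Of 32851 such windows, 42.3% held AGNAAC, 16.8% AGNAACA, 17.8% TGACG and 33.8% ATTGG. Only 0.941% held AGNAAC followed on the same strand by ATTGG after a gap of 15 to 35 bases. That pair was found in H2-Eb1, H2-DMb1, H2-Oa and H2-Ob, and of these windows H2-Oa and H2-Ob also held the longer AGNAACA. For H2-DMb1 the GENCODE M21 start lies 119 bases before the RefSeq start. Both letters of its pair lie after that GENCODE start, so in that model they are not before the gene. H2-Aa held ATTGG and TGACG without AGNAAC, H2-DMb2 held ATTGG alone, and H2-DMa held none of the letters in its first window and ATTGG in its second. The 80 bases that end at the Y box are printed for 5 genes, 5′ to 3′ on the gene's own strand. These windows held ATTGG on that strand and had a RefSeq start near the GENCODE start. For H2-Oa the GENCODE start lies 39 bases before the RefSeq start, on the last base of its Y box match. H2-DMb1 (starts 119 bases apart) and the second window of H2-DMa (2686 bases apart) were left out. Capitals mark matches on that strand to the short X box core, the X2 box and the Y box. A second X2 box match of H2-Aa, on the other strand and overlapping the first, is not capitalised. H2-Aa lies at chr17:34287867-34287946 (minus strand), H2-Eb1 at chr17:34305733-34305812, H2-DMb2 at chr17:34145084-34145163, H2-Oa at chr17:34092261-34092340 and H2-Ob at chr17:34238773-34238852 (all 4 on the plus strand). A match of letters is a description and shows no binding. Only exact letters were searched, so a missing match does not show that a promoter lacks the box.
H2-Aa: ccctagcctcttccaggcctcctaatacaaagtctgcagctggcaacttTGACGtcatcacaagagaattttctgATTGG
H2-Eb1: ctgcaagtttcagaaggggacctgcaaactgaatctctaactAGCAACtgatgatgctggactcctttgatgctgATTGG
H2-DMb2: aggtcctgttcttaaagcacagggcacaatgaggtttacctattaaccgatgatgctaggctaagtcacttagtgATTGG
H2-Oa: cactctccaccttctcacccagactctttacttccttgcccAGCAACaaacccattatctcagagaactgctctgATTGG
H2-Ob: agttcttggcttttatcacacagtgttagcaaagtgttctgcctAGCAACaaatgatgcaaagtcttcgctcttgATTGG

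**Figure D1:**
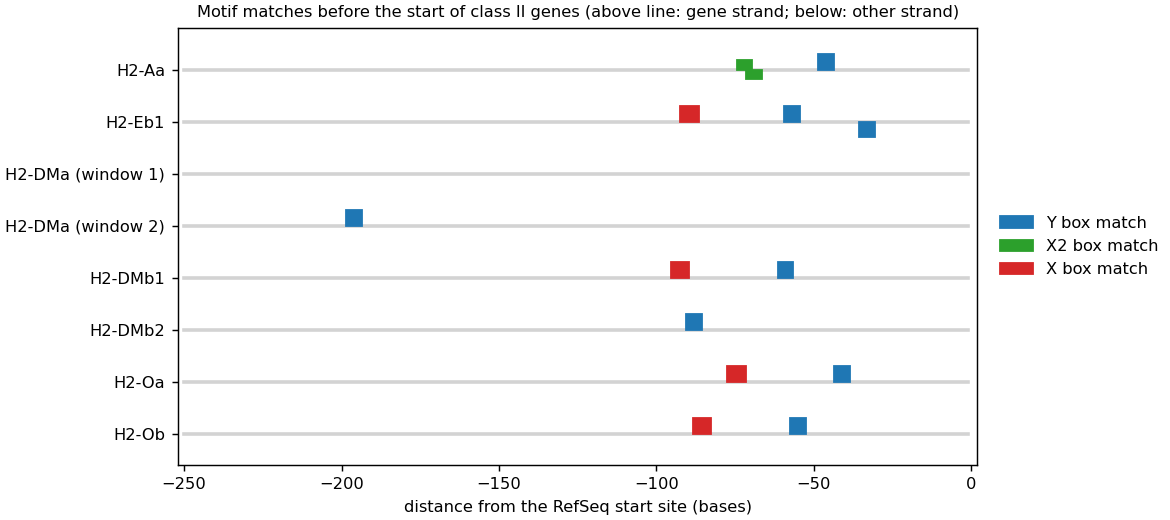
Matches to the X box (red), X2 box (green) and Y box (blue) letters in the 250 bases before the RefSeq start of 7 class II genes (8 windows), with the distance from the start in bases on the x axis. Boxes above a line are on the gene's strand and boxes below it on the other strand. H2-Eb1, H2-DMb1, H2-Oa and H2-Ob have an X box match followed by a Y box match, which in H2-DMb1 lie after the GENCODE start.

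In GENCODE M21 on GRCm38, 8 of the 10 genes lie close together on chromosome 17, from H2-Oa (34092340 to 34095234) to H2-Eb1 (34305867 to 34316674). Ciita is on chromosome 16 (10480059 to 10528418) and Cd74 on chromosome 18 (60803848 to 60812652). Counts of some members cannot be separated cleanly. The main transcripts of H2-DMb1 and H2-DMb2 were 94.4% identical over 1255 aligned bases and 27.2% of the 50-base stretches of H2-DMb1 also occur in H2-DMb2, so the split of reads between the pair is uncertain. Of the 50-base stretches of H2-DMb2, 32.8% occur in other genes (297 in all), and 26.8% occur in H2-DMb1. The H2-DMb2 count is therefore uncertain beyond the pair as well. The transcript of H2-Oa overlaps BC051537, on the opposite strand, over 321 bases (29.5% of its length), and how the counting treated strand is not given in the sources used here. Ciita overlaps Dexi on the opposite strand over 111 bases. Exons of H2-DMa outside its main transcript overlap Brd2 on the opposite strand over 360 bases.

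Total counts per library were 60147266 to 68730322 with luciferase or SETBP1-D868N, and 7083731 to 10359093 with DMSO or PF-9363. Values are given as CPM, counts scaled to the library total after TMM normalization. Raw counts of a member in 1 library ranged from 249 to 86118 with luciferase or SETBP1-D868N and from 13 to 7804 with DMSO or PF-9363. The standard errors of all 10 members were larger in the second experiment, and largest there for H2-Ob (0.29), H2-DMb2 (0.22) and Ciita (0.21). The groups separated along the first principal component in both experiments (62.3% and 88.7% of the variance). The mouse gene Setbp1 had 0.0744 to 0.101 CPM in the luciferase cultures and 0.306 to 0.361 CPM in the SETBP1-D868N cultures. How much of the transgene this entry counts is not known. Of the progenitor markers, Mpo averaged 2760 ± 90.6 CPM (SD, n = 3) in the luciferase cultures and Kit 180.4 ± 2.81.

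With SETBP1-D868N most class II genes were lower, and the genes of the H2-O inhibitor did not pass the test. In edgeR's quasi-likelihood test, with Benjamini-Hochberg adjusted p under 0.05, 8 of the 10 genes were lower than with luciferase and 0 were higher. Among all 15794 genes tested, 22.7% were called lower, 24.5% higher and 47.2% in either direction. The groups did not overlap for 9 of the 10 genes, all lower, against 27.3% of all genes. The median log2 fold change was -0.93 for the 10 genes and 0.0043 for all genes. Fewer cells that express class II and less class II RNA per cell cannot be told apart in bulk RNA.

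The transactivator gene Ciita had 75.7, 66.5 and 66.7 CPM in the luciferase cultures and 31.8, 33.1 and 38.1 CPM in the SETBP1-D868N cultures. Every SETBP1-D868N value was well below every luciferase value. The log2 fold change was -1.02 (SE 0.084, edgeR adjusted p = 1.08e-04), a 2.03-fold lower level.

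The classical chains fell by nearly the same factor. H2-Aa, the α chain of H2-A, had 309, 295 and 292 CPM with luciferase and 139, 153 and 153 CPM with SETBP1-D868N. H2-Ab1, its β partner, had 278, 272 and 266 CPM against 123, 134 and 139 CPM. H2-Eb1, the β chain of H2-E, had 184, 167 and 172 CPM against 78.8, 87.5 and 85.8 CPM. In none of the 3 did the groups come near each other, and replicates within a group lay close together. The log2 fold changes were -1.01 (SE 0.039, edgeR adjusted p = 1.98e-08) for H2-Aa, -1.05 (SE 0.041, 3.72e-08) for H2-Ab1 and -1.05 (SE 0.048, 1.98e-07) for H2-Eb1. H2-Ea is the gene of the α chain of H2-E and is also named H2-Ea-ps, a pseudogene symbol. It averaged only 0.0251 CPM with luciferase and 0.00508 CPM with SETBP1-D868N, under the filter. RNA for a partner of H2-Eb1 was thus nearly absent, and whether an H2-E pair is made was not measured.

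Cd74, the invariant chain and the most abundant member, had 1282, 1242 and 1219 CPM with luciferase and 616, 754 and 717 CPM with SETBP1-D868N. The groups did not overlap, but the SETBP1-D868N cultures were spread more widely, with the first one lowest. The log2 fold change was -0.84 (95% interval -1.05 to -0.63, edgeR adjusted p = 6.48e-04). This interval overlaps those of the 3 classical chains.

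The H2-M genes fell unevenly. H2-DMa had 96.9, 96.8 and 92.7 CPM with luciferase and 64.1, 67.0 and 69.1 CPM with SETBP1-D868N. H2-DMb1 had 53.8, 49.8 and 54.3 CPM against 38.8, 37.6 and 38.9 CPM. H2-DMb2 had 24.2, 23.8 and 22.8 CPM against 10.6, 10.9 and 13.5 CPM. All 3 were lower in every SETBP1-D868N culture. The log2 fold changes of H2-DMa (-0.52, SE 0.034, edgeR adjusted p = 3.07e-07) and H2-DMb1 (-0.45, SE 0.040, 2.39e-06) had intervals that did not reach those of the classical chains. H2-DMb2 changed by -1.02 (SE 0.086, edgeR adjusted p = 1.37e-05). Within each library the ratio of H2-DMb2 to H2-DMb1 was 0.421 to 0.477 with luciferase and 0.272 to 0.348 with SETBP1-D868N, with the uncertain split of reads named above.

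The genes of the inhibitor H2-O did not pass the test. H2-Oa had 15.2, 15.7 and 14.4 CPM with luciferase and 14.2, 13.1 and 14.2 CPM with SETBP1-D868N. Its groups were separated by a narrow gap, with a log2 fold change of -0.12 (95% interval -0.25 to -0.0025, edgeR adjusted p = 0.0875). H2-Ob had 4.26, 4.42 and 4.38 CPM against 4.57, 3.81 and 4.37 CPM, with overlapping groups and a log2 fold change of -0.035 (95% interval -0.24 to 0.17, edgeR adjusted p = 0.794). The lower ends of these intervals, -0.25 and -0.24, lie short of the fold change of every other member. The summed H2-O genes amounted to 0.111 to 0.118 of the summed H2-M genes with luciferase and to 0.146 to 0.166 with SETBP1-D868N, with no overlap. BC051537, the gene opposite H2-Oa, was at 0.422 to 0.734 CPM in these 6 libraries.

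**Figure D2:**
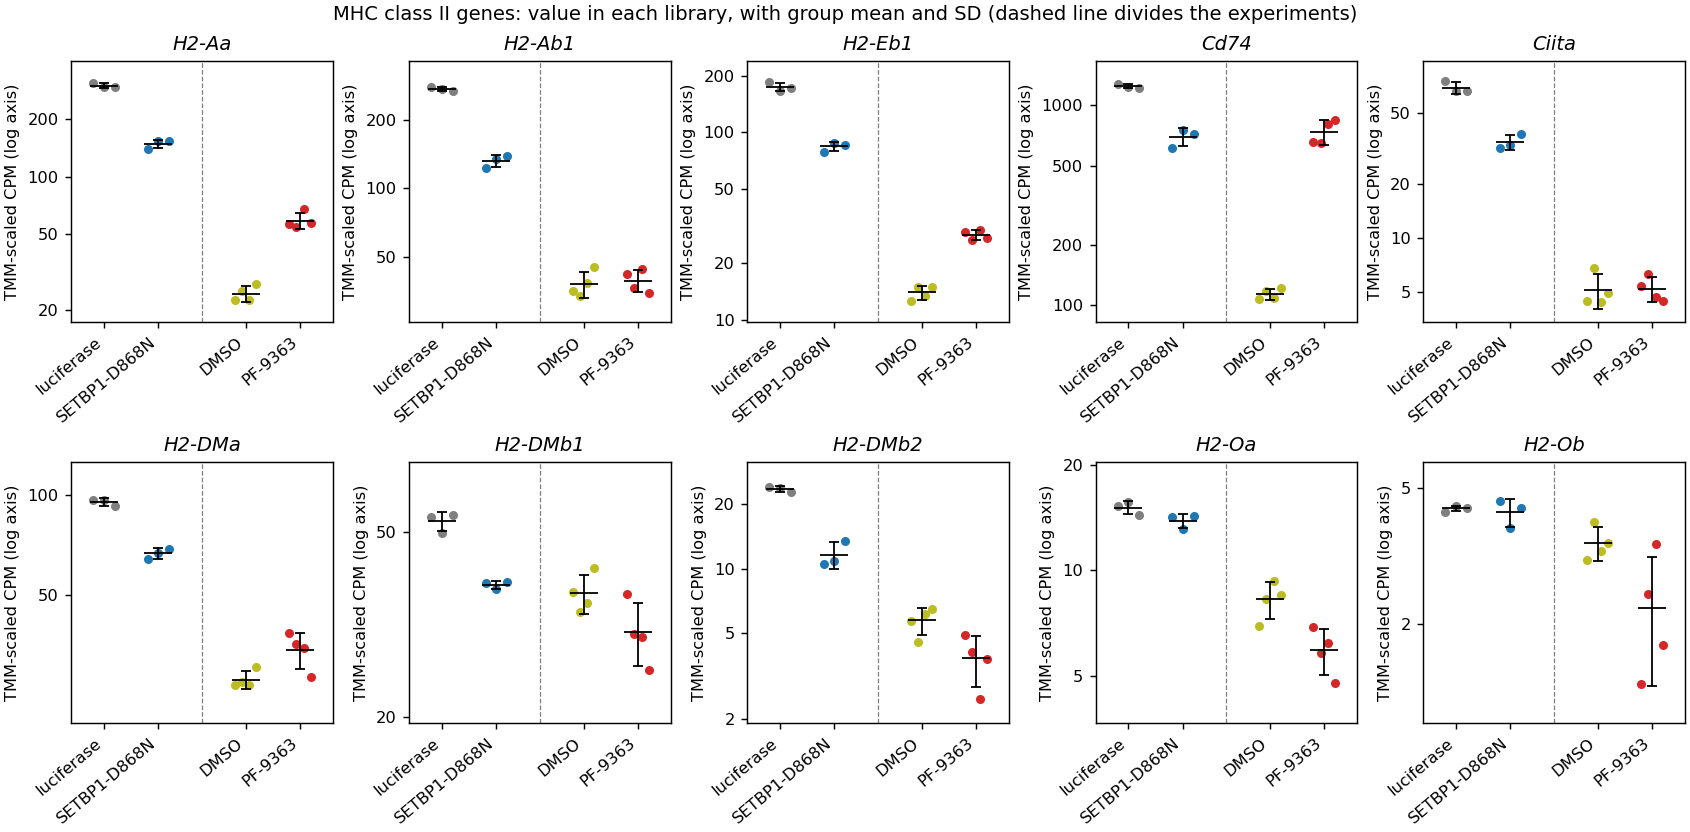
TMM-scaled CPM (log axis, a separate range per gene) of the 10 class II genes in each library, with group means and SD as bars, luciferase and SETBP1-D868N (n = 3 each) left of the dashed line and DMSO and PF-9363 (n = 4 each) right of it. On the left 8 genes step down by 1.37-fold to 2.08-fold while H2-Oa and H2-Ob stay close; on the right Cd74, H2-Aa and H2-Eb1 step up and H2-Ab1 and Ciita overlap.

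With PF-9363, Cd74, H2-Aa and H2-Eb1 rose, while H2-Ab1 and Ciita did not pass the test. Against DMSO, 4 of the 10 genes were higher and 4 lower in edgeR's test (adjusted p under 0.05). Of all 13456 genes tested, 36.6% were called higher, 39.4% lower and 76% in either direction, so both counts are close to the background and are no result about the group. The groups did not overlap for 3 genes that were higher and 1 that was lower, against 34% and 36.3% of all genes, and they overlapped for 6. The log2 fold changes ran from -0.67 to 2.70 with a median of 0.03, beside -0.038 for all genes.

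Cd74 rose most. It had 107, 118, 108 and 122 CPM with DMSO and 659, 645, 810.4 and 845 CPM with PF-9363, so that the lowest treated culture was far above the highest control. The level was 6.50-fold higher (log2 fold change 2.70, SE 0.085, edgeR adjusted p = 6.73e-17).

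Of the classical chains, H2-Aa and H2-Eb1 rose and H2-Ab1 did not pass the test. H2-Aa had 22.7, 25.3, 22.7 and 27.3 CPM with DMSO and 56.8, 54.7, 67.4 and 57.0 CPM with PF-9363. H2-Eb1 had 12.7, 15.0, 13.4 and 14.9 CPM against 29.4, 26.8, 30.3 and 27.2 CPM. Both genes were higher in every treated culture, with log2 fold changes of 1.26 (SE 0.093, edgeR adjusted p = 6.98e-13) and 1.02 (SE 0.11, 2.17e-09). H2-Ab1, whose product pairs with that of H2-Aa, had 35.3, 33.8, 38.4 and 45.0 CPM with DMSO and 42.1, 36.5, 44.1 and 34.9 CPM with PF-9363. Its groups lay over each other, with a log2 fold change of 0.043 (95% interval -0.16 to 0.25, edgeR adjusted p = 0.706). The interval of H2-Aa, 1.07 to 1.45, does not reach that of H2-Ab1. H2-Ea, the gene of the α partner of H2-Eb1, was at 0 counts in all 8 libraries of this experiment.

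The partners of the H2-A pair thus changed their balance within each library. The ratio of H2-Aa to H2-Ab1 CPM was 0.641, 0.749, 0.591 and 0.608 with DMSO and 1.35, 1.50, 1.53 and 1.64 with PF-9363. No DMSO value came near a PF-9363 value. With luciferase and SETBP1-D868N the same ratio was 1.08 to 1.11 and 1.10 to 1.14, ranges that overlap. The ratio of Cd74 to H2-Ab1 was 2.71 to 3.48 with DMSO and 15.6 to 24.2 with PF-9363.

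Ciita did not pass the test. It had 4.45, 6.77, 4.39 and 4.89 CPM with DMSO and 5.34, 6.30, 4.66 and 4.44 CPM with PF-9363, with overlapping groups. The log2 fold change was 0.019 with a wide 95% interval of -0.42 to 0.45 (edgeR adjusted p = 0.939), and so a change of Ciita of up to about that size was not detectable in these cultures. The interval ends short of the changes of H2-Aa, H2-Eb1 and Cd74. Dexi, which overlaps Ciita, was at 4.55 to 6.64 CPM with DMSO and 2.33 to 3.36 CPM with PF-9363.

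**Figure D3:**
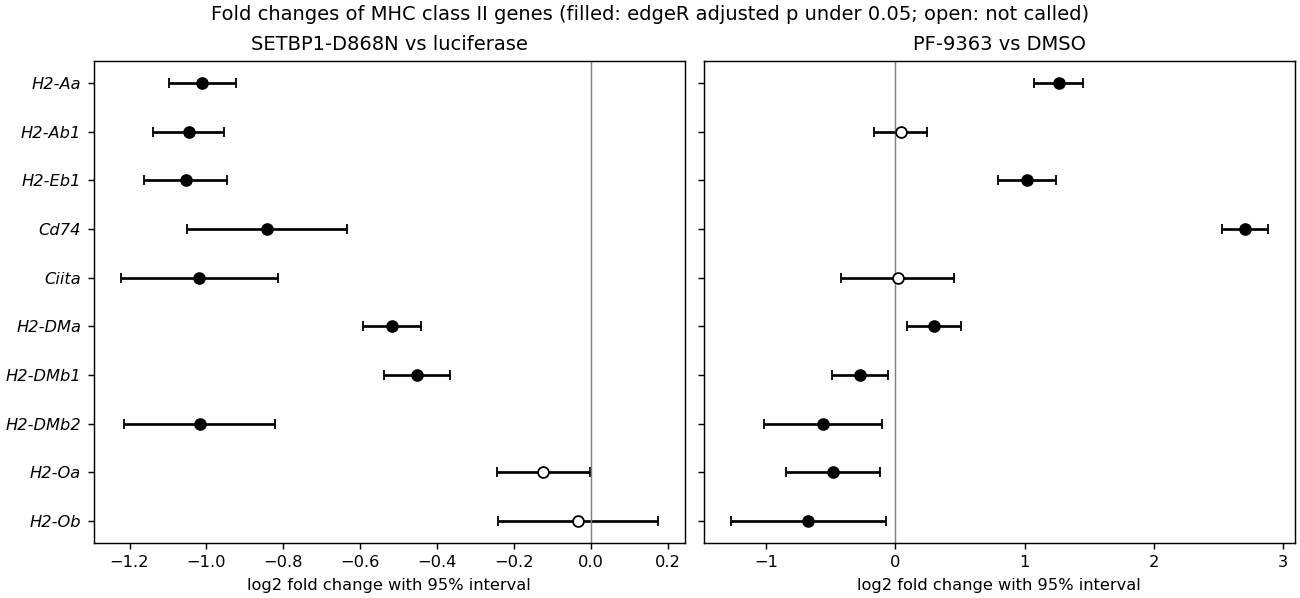
Log2 fold changes of the 10 class II genes with 95% intervals (bars) for SETBP1-D868N against luciferase (n = 3 each, left) and PF-9363 against DMSO (n = 4 each, right), on x axes of different range; filled points passed edgeR's adjusted p of 0.05. On the left all points but H2-Oa and H2-Ob are filled and below 0, and on the right they run from -0.67 for H2-Ob to 2.70 for Cd74.

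The H2-M genes moved by small amounts and in opposite directions. H2-DMa had 26.7, 27.2, 26.6 and 30.2 CPM with DMSO and 38.2, 35.5, 34.5 and 28.2 CPM with PF-9363. The fourth treated culture lay within the control range, and the log2 fold change was 0.30 (SE 0.10, edgeR adjusted p = 0.00927). It missed the threshold with scaling by library size alone (0.071, adjusted p = 0.539) and without PF-9363 replicate 1 (0.24, adjusted p = 0.051). H2-DMb1 had 37.0, 33.6, 35.05 and 41.7 CPM against 36.7, 30.1, 29.7 and 25.2 CPM, and H2-DMb2 had 5.74, 4.58, 6.17 and 6.52 CPM against 4.93, 4.12, 2.49 and 3.79 CPM. Groups overlapped in both. The log2 fold changes were -0.27 (SE 0.11, edgeR adjusted p = 0.0215) and -0.56 (SE 0.22, 0.0245). The ratio of H2-DMa to the summed H2-DMb genes, which rests less on the split between the H2-DMb pair, was 0.625 to 0.713 with DMSO and 0.919 to 1.07 with PF-9363, with no overlap. Brd2, which shares exon bases with H2-DMa, was at 227 ± 3.95 CPM with DMSO and 551 ± 42.5 CPM with PF-9363. Its part in the H2-DMa counts and in this ratio was not tested.

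The H2-O genes fell, at low levels. H2-Oa had 6.93, 8.26, 9.35 and 8.51 CPM with DMSO and 6.89, 5.79, 6.21 and 4.76 CPM with PF-9363, separate groups with almost no gap (log2 fold change -0.48, SE 0.18, edgeR adjusted p = 0.0151). H2-Ob had 3.07, 3.98, 3.27 and 3.44 CPM against 1.34, 2.44, 3.42 and 1.73 CPM, with the third treated culture among the controls (log2 fold change -0.67, SE 0.29, edgeR adjusted p = 0.0392). BC051537 was at 3.56 to 6.08 CPM with DMSO and 3.90 to 6.83 CPM with PF-9363, close to the level of H2-Oa, and without the counting's use of strand the reads of the overlapping pair cannot be told apart. Each of these decreases lost its call under at least 1 alternative. Of the 4 genes called lower, DESeq2 called 2, and leaving out single libraries left 1 (without DMSO replicate 4 or PF-9363 replicate 4), 2 (without DMSO replicate 3 or PF-9363 replicate 3) or more. The summed H2-O genes amounted to 0.144 to 0.188 of the summed H2-M genes with DMSO and 0.103 to 0.145 with PF-9363, ranges that overlap slightly.

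**Figure D4:**
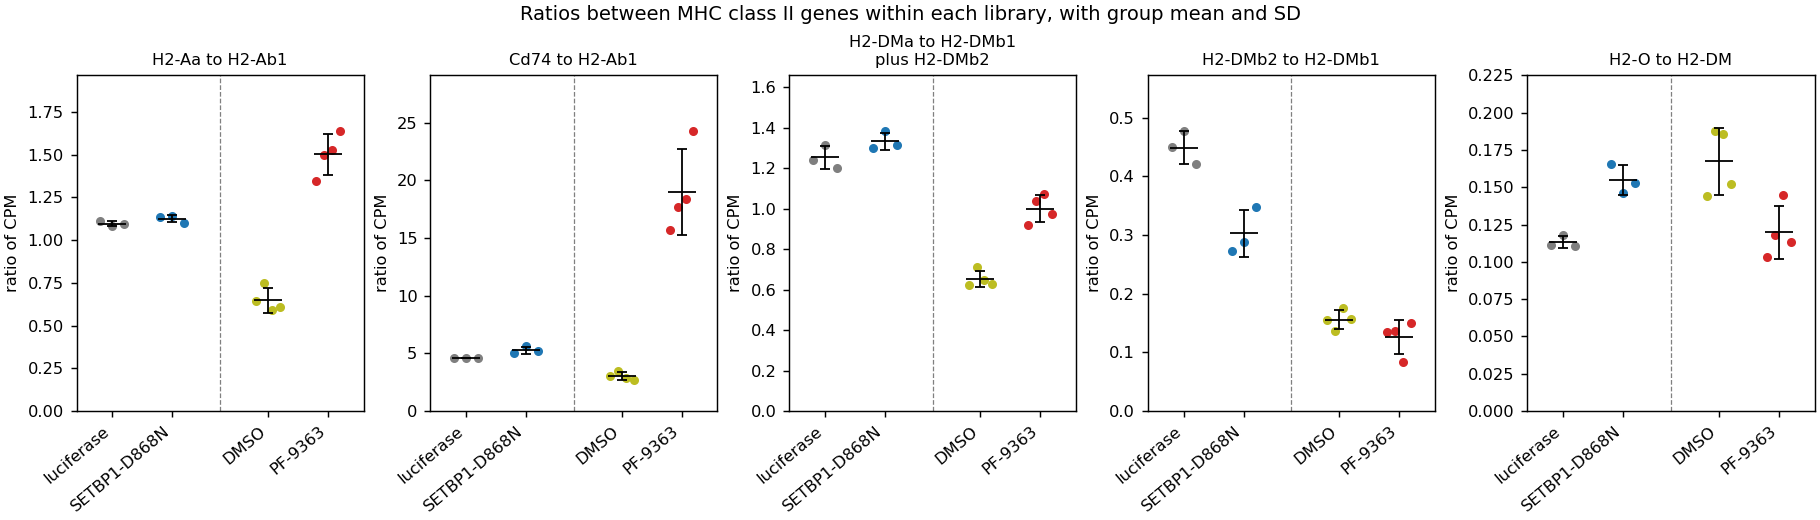
Ratios of CPM between class II genes within each library (points), with group mean and SD as bars and each y axis starting at 0, n = 3 for luciferase and SETBP1-D868N and n = 4 for DMSO and PF-9363; the dashed line divides the experiments. H2-Aa to H2-Ab1 is 0.591 to 0.749 with DMSO and 1.35 to 1.64 with PF-9363, and H2-O to H2-DM is higher with SETBP1-D868N than with luciferase in every library.

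Per kilobase of transcript, the order of levels in the luciferase cultures was Cd74 (885 ± 22.5 CPM per kb, SD, n = 3), H2-Aa (265 ± 7.86), H2-Ab1 (225 ± 4.62), H2-Eb1 (105 ± 5.40), H2-DMa (57.6 ± 1.46), H2-DMb1 (37.5 ± 1.75), H2-DMb2 (16.6 ± 0.503), H2-Oa (13.9 ± 0.595), Ciita (11.6 ± 0.872) and H2-Ob (1.63 ± 0.0320). No neighbours in this order had overlapping ranges. With SETBP1-D868N the order was the same except that H2-Oa (12.7 ± 0.609) stood above H2-DMb2 (8.18 ± 1.15). With DMSO the β chain H2-Ab1 (31.5 ± 4.10, n = 4) came before H2-DMb1 (26.2 ± 2.53) and H2-Aa (21.7 ± 2.00), and the ranges of H2-Ab1 and H2-DMb1 overlapped, as did those of H2-DMb1 and H2-Aa and of H2-Eb1 and H2-Oa. With PF-9363 H2-Aa (52.3 ± 5.07) was again above H2-Ab1 (32.5 ± 3.65), the ranges of H2-DMb1, H2-DMa and H2-Eb1 overlapped from each to the next, and the lowest places were taken by Ciita (0.863 ± 0.140) and H2-Ob (0.836 ± 0.342), whose ranges overlapped. SETBP1-D868N cells appear in both experiments, with 148 ± 7.93 CPM of H2-Aa in the first and 24.5 ± 2.26 CPM under DMSO in the second, but the tables were scaled separately and differ in RNA input, library preparation and depth, so no comparison is made across them.

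The members also differed in how they varied over all 14 libraries, each centred on its experiment's mean. As a description, with libraries that share 2 contrasts, Pearson's r of log2 CPM was 0.988 between H2-Aa and H2-Eb1, 0.937 between H2-Aa and Cd74, 0.809 between H2-Ab1 and Ciita and 0.304 between H2-Ab1 and Cd74. Among 11562 genes with at least 1 CPM on average in each experiment, the genes most like H2-Ab1 were Actn1 (r = 0.947), Ccng2 (0.921), Retnlg (0.921), Padi4 (0.919) and S100a8 (0.917). The genes most like Ciita were Svil (0.945), Ssh1 (0.936), Sh3tc1 (0.929), Zfp710 (0.915) and Gpr183 (0.914).

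Genes that act around the class II molecules were followed in lists chosen by their known roles. Of all genes, 22.7% were called lower and 24.5% higher with SETBP1-D868N. With PF-9363 36.6% were called higher, 39.4% lower and 76% in either direction. For a list called in both directions with PF-9363, the number of genes called is therefore no result about the list. Genes of the list of invariant chain and peptide processing proteases fell with SETBP1-D868N. Of 9 genes, 8 were lower and 0 higher, with a median log2 fold change of -0.30. Beside proteases, this list holds the thiol reductase Ifi30 (named for its role), which was lower here and higher with PF-9363. Ctss, the cathepsin that makes CLIP, went from 369.8 ± 8.89 to 220.3 ± 25.3 CPM (SD, n = 3), a log2 fold change of -0.75 (edgeR adjusted p = 0.00172), with Ctsh at -0.74, Lgmn at -0.64 and Ctsd at -0.43. With PF-9363 all 9 rose, with a median of 2.54. Ctss went from 100.0 ± 12.3 to 702 ± 56.0 CPM (n = 4, log2 fold change 2.81, edgeR adjusted p = 1.68e-19), and Lgmn, Ctsb and Ctsl changed by 3.50, 2.96 and 2.73. The called genes had the direction of Cd74 in each comparison.

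Few of the factors that occupy the X, X2 and Y boxes were called with SETBP1-D868N. With SETBP1-D868N, 1 of 7 was higher (Rfx5, an X box factor, log2 fold change 0.17) and 0 were lower, with a median of 0.033. With PF-9363, 4 of 7 were lower and 2 higher, beside 39.4% and 36.6% of all genes, with a median of -0.48. The RFX subunits Rfxap and Rfx5 fell by 1.05 and 0.58 on the log2 scale, Creb1 by 0.57 and the Y box subunit Nfyb by 0.48, and the RFX subunit Rfxank and the Y box subunit Nfya rose (0.45 and 0.26, named after their values were seen). Rfxap went from 20.5 ± 2.47 to 9.80 ± 2.34 CPM (SD, n = 4, edgeR adjusted p = 2.39e-07).

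Of 12 regulators of Ciita expression, 12 were lower with SETBP1-D868N, with a median log2 fold change of -0.30. Prdm1, a repressor of Ciita, changed by -1.14 (from 5.99 ± 0.997 to 2.71 ± 0.468 CPM), the interferon-receptor kinase Jak2 by -0.55 and Irf2 by -0.35. With PF-9363, 9 were higher and 2 lower, beside 36.6% and 39.4% of all genes, with a median of 1.04. Prdm1 changed by 1.99, the interferon gamma receptor chain Ifngr2 by 1.82, Jak2 by 1.52 and Irf4 by 1.40. The 2 lower genes, named after their values were seen, were Ifngr1 (-1.08), the ligand-binding chain of the same receptor, from 519 ± 15.2 to 245 ± 7.55 CPM, and Usf1 (-0.37).

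Among genes of class II surface turnover, 4 of 8 tested (of 9 listed) were lower and 0 higher with SETBP1-D868N, with a median log2 fold change of -0.083. Cd83, which shields surface class II from ubiquitination, changed by -0.96, Il10ra by -0.72, the ubiquitin ligase Marchf1 by -0.58 and Il10rb by -0.17. With PF-9363, 5 of 8 were higher and 2 lower, beside 36.6% and 39.4% of all genes, with a median of 1.53. Cd83 changed by 2.43, Marchf1 by 1.88 and Il10ra by 1.85. Marchf1 and Cd83, which act on surface class II in opposite senses, moved the same way in each comparison. Marchf9 was called lower at few counts (1.78 ± 0.379 to 0.198 ± 0.179 CPM), and Ube2d1, named after its value was seen, changed by -0.33.

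Genes of the costimulation list, whose products act beside class II at the T cell contact, were lower in 6 of 6 cases with SETBP1-D868N. They were higher in 6 of 6 with PF-9363. The median log2 fold changes were -0.56 and 2.98. Beside costimulatory genes, the list holds Cd274 and Pdcd1lg2, whose products are ligands that inhibit T cells. Cd86 went from 18.9 ± 1.52 to 9.15 ± 1.00 CPM (n = 3, log2 fold change -1.05, edgeR adjusted p = 4.73e-06), with Cd40 at -0.79 and Cd80 and Pdcd1lg2 at -0.56 each. With PF-9363 Cd86 went from 3.15 ± 0.637 to 46.5 ± 10.4 CPM (n = 4, 3.89, edgeR adjusted p = 7.60e-15), Cd40 changed by 3.42, Cd274 by 3.02 and Pdcd1lg2 by 2.93.

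Neighbours in the class II region showed no common direction. With SETBP1-D868N 3 of 8 tested genes (of 10 found) were lower and 1 higher, with a median log2 fold change of -0.25. The class II β gene H2-Eb2 changed by -1.27 (5.27 ± 0.723 to 2.19 ± 0.208 CPM), the proteasome subunit Psmb9 by -0.35, and the peptide transporter subunits Tap1 and Tap2 by -0.15 and 0.13. With PF-9363 1 of 6 tested genes was higher, Brd2 (1.28), beside 36.6% of all genes. The 3 lower genes, beside 39.4% of all genes, were Psmb9 (-0.66), Tap2 (-0.34) and Psmb8 (-0.30), and the median was -0.32. Exons of Brd2, a bromodomain protein gene, overlap exons of H2-DMa on the opposite strand over 360 bases, all outside the main transcript of H2-DMa. As the counting's use of strand is not known, the H2-DMa count may hold Brd2 reads.

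**Figure D5:**
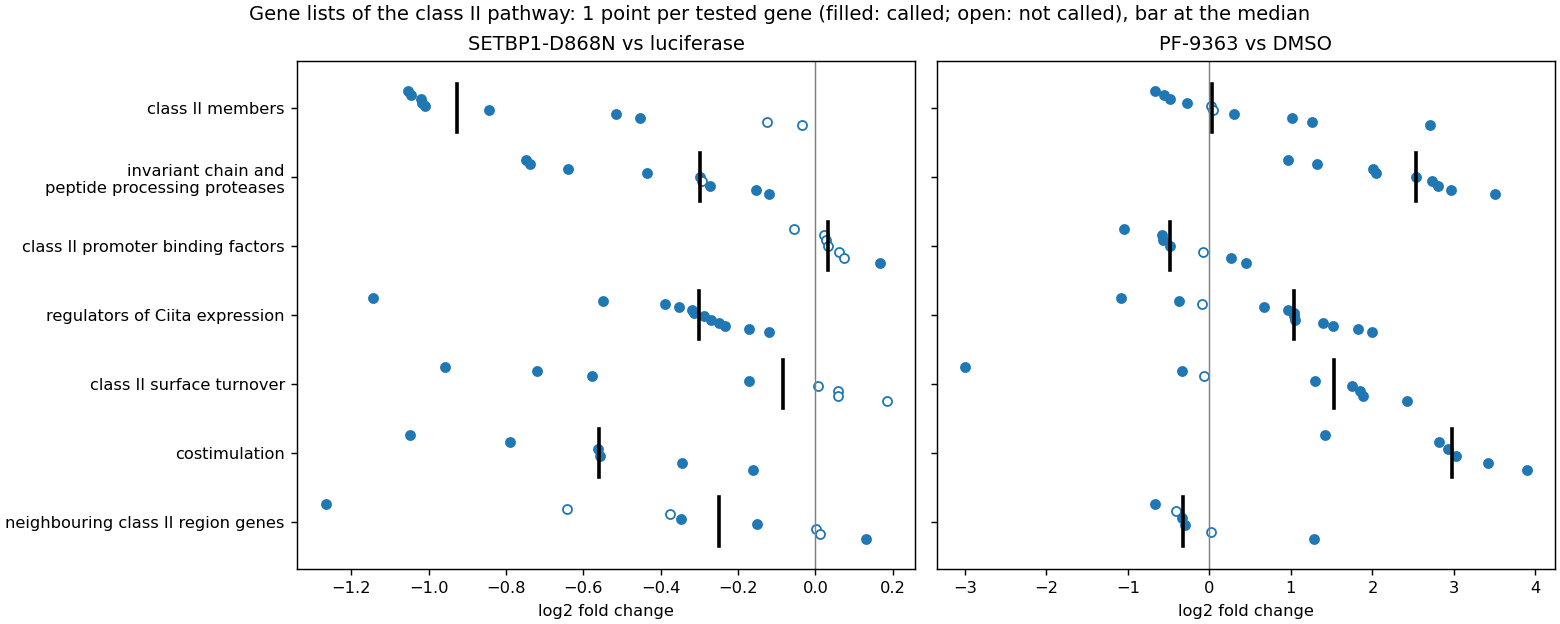
Log2 fold changes (x axis, different ranges) of the class II genes and of 6 lists of genes around them, 1 point per tested gene, filled where edgeR's adjusted p was under 0.05, with a bar at each list's median, for SETBP1-D868N against luciferase (n = 3 each, left) and PF-9363 against DMSO (n = 4 each, right). The medians of the list of processing proteases and of the costimulation list are -0.30 and -0.56 on the left. On the right they are 2.54 and 2.98, where the class II genes have a median of 0.03.

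Markers of cell types that can carry class II moved beside these genes, and their part in the results was not tested. Of all genes, 22.7% were called lower and 24.5% higher with SETBP1-D868N. With SETBP1-D868N, 8 of 9 tested dendritic cell markers (of 10) were lower, their summed level going from 285 to 307 CPM in the luciferase cultures to 163 to 180 CPM. Of 11 macrophage and monocyte markers 10 were lower (sums of 1671 to 1691 against 1271 to 1322 CPM), among them Csf1r (-0.60 on the log2 scale) and C1qa (-1.09). Of 10 B cell markers 4 were tested, 2 were lower and 0 higher, and the sums of 85.5 to 90.0 and 81.6 to 89.4 CPM overlapped, mostly from Ighm. Mast cell and basophil markers were called in both directions (4 higher and 6 lower of 10), as were plasmacytoid dendritic cell markers (2 higher and 2 lower of 7 tested) and stem and progenitor markers (6 higher and 3 lower of 10). Of the T and NK cell markers 3 of 8 were tested, 1 was lower, and the summed level was at most 1.62 CPM.

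With PF-9363, 9 of 11 macrophage and monocyte markers were higher and 2 lower (Ccr2 and Ly6c2), with sums of 2374 to 2544 CPM under DMSO and 3563 to 4034 CPM under PF-9363. Csf1r, the receptor of the macrophage growth factor, went from 62.0 ± 4.69 to 423 ± 22.7 CPM. Of 6 tested dendritic cell markers 4 were higher and 2 lower (sums of 42.9 to 51.3 against 161 to 200 CPM), mostly from Itgax, while Zbtb46, Xcr1, Clec9a and Cd209a were under the filter on low counts. The mast cell and basophil markers were higher in 9 of 10 cases, with 0 lower, and their sums were 1031 to 1274 against 4162 to 5104 CPM. The B cell markers Ms4a1, Ebf1 and Fcmr were at 0 counts in all 8 libraries. Of the 3 B cell markers tested, Cd79b and Ighm were lower and Blnk was higher (sums of 58.1 to 68.7 against 16.1 to 17.97 CPM). Plasmacytoid dendritic cell markers were higher in 2 and lower in 1 of 3 tested, and no T and NK cell marker passed the filter. Stem and progenitor markers were higher in 2 and lower in 4 of 9 tested. Of these, Mpo went from 2315 ± 304 to 6.34 ± 4.03 CPM. Kit, also a mast cell marker, rose from 69.7 ± 5.88 to 191 ± 18.7 CPM. Beside these counts, 36.6% of all genes were called higher and 39.4% lower with PF-9363. The part of these markers in the class II values was not tested.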

How the data were processed

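Messenger RNA was sequenced in 14 libraries of mouse Lin- bone marrow cultures, grouped by their titles. Per the labels, the tables the authors deposited, 1 for each experiment, hold raw read counts by gene symbol. The submitters' processing notes name STAR, DESeq2, GRCm38 and mm10. The counting program, the annotation and the use of strand are not given in the sources used here. RNA input was 500 ng and then 100 ng, with different library preparation, per the labels' protocols, so the experiments were fitted separately and never tested against each other.

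Everything else was computed here in R 4.3.3 and Python 3.11.15. Low genes were removed with edgeR 4.0.16 (filterByExpr, minimum count 10, minimum total 15), leaving 15794 and 13456 genes. Counts were TMM-scaled and compared with edgeR's robust quasi-likelihood test, adjusted over all tested genes by Benjamini-Hochberg. Intervals are 95%. Depth was 60147266 to 68730322 and 7083731 to 10359093 counts per library. The 10 members are named whatever they show, and at most 4 called genes per list and comparison are named in order of absolute log2 fold change, with the exceptions said so. Some list genes are not reported here by name. Marker genes were named as examples. The 10 members and all lists of pathway genes and markers were chosen with earlier results of these data known. Alternatives were RLE size factors, library size alone, other filters on low counts, DESeq2 1.42.0, limma-voom (limma 3.58.1), no robust estimation, a replicate block and leaving out each library. Promoters are RefSeq windows on GRCm38.p6, and gene models are from GENCODE M21, whose symbols matched all 10 members.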

Additional observations from a re-analysis of the deposited data

Results flagged for a closer look

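In DMSO replicate 4, H2-DMa was at 30.2 CPM, apart from the other 3 DMSO cultures, which lay between 26.6 and 27.2 CPM. It was the single such value among 20 groups of 4 cultures (10 genes in DMSO and in PF-9363), and chance alone sets 1 value apart in about 1 group in 20. Without this culture H2-DMa was still called higher with PF-9363 (log2 fold change 0.34, edgeR adjusted p = 0.00794).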

How the results depend on the processing

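With SETBP1-D868N, the counts of 8 lower and 0 higher class II genes held under all 14 alternatives, including the replicate block and each left-out library. With PF-9363, 3 to 4 genes were higher under 16 alternatives. The number lower was 2 with DESeq2, where H2-DMb1 (adjusted p = 0.0517) and H2-Ob (0.063) missed the threshold, and 1 to 4 when single libraries were left out. The call of H2-Ob was lost in 6 of 16 alternatives, of H2-DMb1 in 4, of H2-DMb2 in 3, of H2-DMa in 2 and of H2-Oa in 1 (without PF-9363 replicate 4, -0.38, adjusted p = 0.071). Cd74, H2-Aa and H2-Eb1 kept their calls throughout, between 2.47 and 2.77, 1.03 and 1.31, and 0.79 and 1.06. Signs turned only in values that no setting called. For H2-Ob with SETBP1-D868N the log2 fold change was 0.014 with library size alone and -0.094 to 0.033 with single libraries left out (0.033 without SETBP1-D868N replicate 2). For H2-Ab1 with PF-9363 it was -0.19 with library size alone and -0.016 to 0.13 with single libraries left out (-0.016 without DMSO replicate 2). For Ciita with PF-9363 it was -0.21 with library size alone, -0.0014 without the filter, and -0.071 to 0.17 with single libraries left out (-0.046 without DMSO replicate 1, -0.055 without DMSO replicate 3, -0.0097 without DMSO replicate 4, -0.071 without PF-9363 replicate 2). Library size alone moved the median of all genes with PF-9363 from -0.038 to -0.27, so these values are shifted with it. Counts over all genes and over the lists stayed within 1.5 times their main values. The replicate numbers did not pair the cultures, with correlations of same-numbered deviations between -0.097 and 0.0075. The replicate block gave 8 lower and 0 higher class II genes with SETBP1-D868N and 4 higher and 4 lower with PF-9363, with no change of these counts.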
